A study of Mus musculus with 8 samples.

Results

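The genes described here are 10 members of the interleukin-6 (IL-6) family and its receptors, namely the cytokines Il6, Lif, Osm, Il11 and Clcf1 and the receptor chains Il6ra, Il11ra1, Il6st, Lifr and Osmr. They were taken by name, and all 10 were among the 24584 genes of the tables and among the 15706 genes with enough counts to be tested. RNA was sequenced from lung tissue of male ICR mice aged 6 to 8 weeks, an outbred stock whose genotype the labels give as widetype. The LPS group (n = 4) received lipopolysaccharide (LPS) of Escherichia coli intraperitoneally at 5 mg/kg, and the LPS + Tan group (n = 4) received the same dose of LPS and, 30 min earlier, the citrus flavonoid tangeretin (Tan) at 50 mg/kg. Lungs of both groups were taken 12 h after LPS. Every sample analysed here had received LPS, so that the data compare LPS with and without tangeretin and hold no level for an untreated lung or for tangeretin alone. The samples were treated as separate mice, and the p-values measure only the spread between these samples.

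Cytokines of this family share gp130, the signal-transducing receptor chain encoded by Il6st. IL-6 and IL-11 first bind their own receptor chain, IL-6 receptor alpha or IL-11 receptor alpha, and then gather gp130, whereas leukemia inhibitory factor (LIF) and oncostatin M (OSM) signal through gp130 joined to the LIF receptor or to the OSM receptor. These complexes activate JAK kinases and STAT3, which induces acute phase proteins and its own inhibitor SOCS3, and IL-6 is among the cytokines that LPS induces in lung.

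Total counts per sample ranged from 38895654 to 39931970 with LPS and from 39039693 to 39629332 with LPS + Tan. Markers of alveolar type 1 and type 2 cells were expressed in all samples, with summed levels of 2812 to 3548 and 8706 to 13884 CPM (counts scaled to a common library size). No sample repeated another library of its own group. Leaving out LPS + Tan replicate 2 or replicate 4 raised the share of all tested genes past an unadjusted p of 0.05 from 5.12% to 10.2% or 9.34%. The share was 3.02% and 3.72% without LPS + Tan replicate 1 and 3. It was 5.64%, 4.13%, 3.69% and 4.91% without LPS replicates 1 to 4.

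Il6st, Lifr and Osmr, the signal-transducing receptor chains, were the members that differed most clearly between the groups. Il6st was 1.22-fold lower and Osmr 1.37-fold lower in LPS + Tan lungs, whereas Lifr was 1.27-fold higher. The 5 cytokine genes and the alpha chains Il6ra and Il11ra1 did not pass an unadjusted p of 0.05. No member passed an adjusted p of 0.05 (Benjamini-Hochberg, edgeR's quasi-likelihood test, limma or DESeq2), and no member passed the thresholds for differentially expressed genes used in the study, an unadjusted p of 0.05 with an absolute log2 fold change of 1. Of the 15706 genes tested, edgeR called 0 (0.0%) at the adjusted p, DESeq2 called 35 of the 15507 genes to which it gave an adjusted p, and the thresholds of the study called 102 of the 15706 with edgeR (0.649%). At an unadjusted p of 0.05, 3 of the 10 members were called by edgeR, by DESeq2 and by limma-voom, against 804 of all tested genes (5.12%). The number was 1 with scaling by total counts and 1 without LPS replicate 2 or LPS replicate 3, in each case Lifr, 2 without LPS replicate 4 or LPS + Tan replicate 1, 3 or 4, and 4 without LPS + Tan replicate 2. The share of all tested genes called was 5.68% with total counts and 4.13%, 3.69% and 4.91% without LPS replicate 2, 3 and 4. It was 3.02%, 10.2%, 3.72% and 9.34% without LPS + Tan replicates 1 to 4. Of the 3 members, 1 was higher, against 2.87% of all tested genes, and 2 were lower, against 2.25%. The split of all called genes was 451 higher and 353 lower, and it became 653 and 239 when counts were scaled by their totals alone. The median log2 fold change of the 10 members was -0.14, with 6 lower and 4 higher, beside a median of 0.01 over all tested genes, of which 48.2% were lower.

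**Figure D1:**
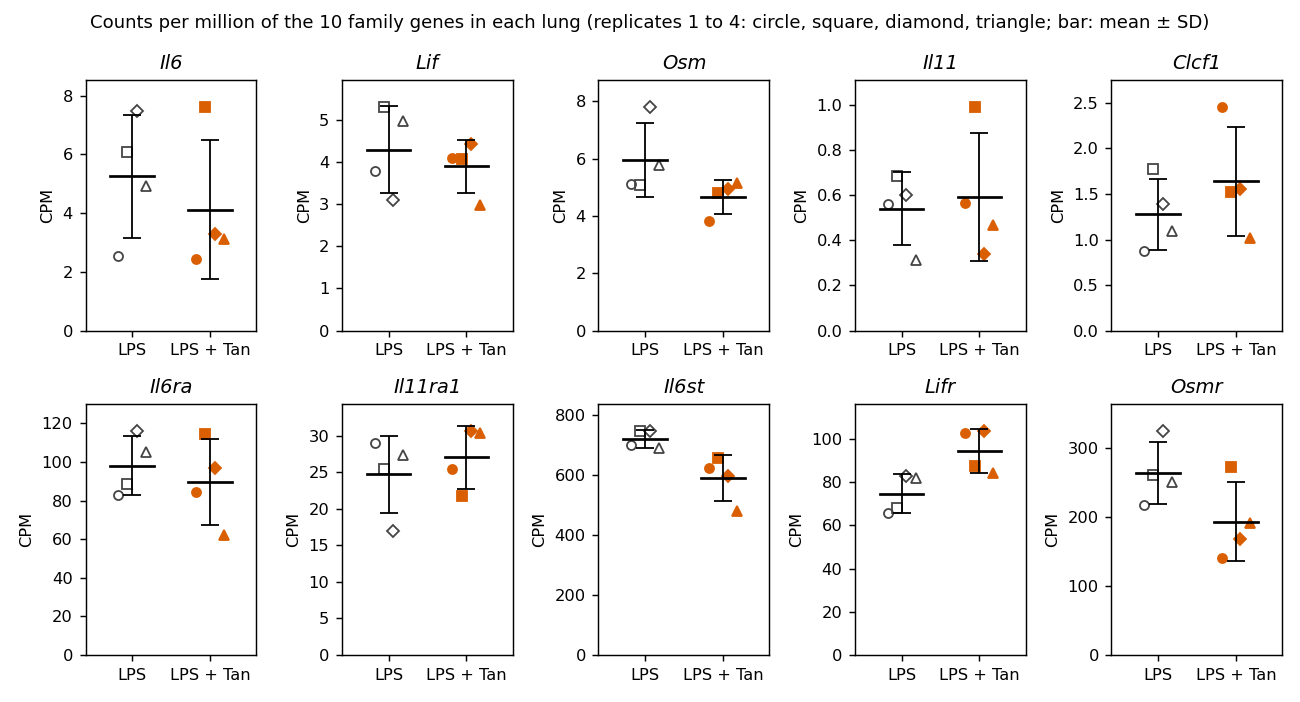
Level of each of the 10 family genes in every lung, in CPM on a linear axis from 0, with open symbols for LPS, filled symbols for LPS + Tan, and bars for the mean and SD of 4 samples. The groups are apart in Il6st and Lifr and overlap in the other 8 genes.

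Among the cytokines, Il6 encodes IL-6, a main inducer of the acute phase response. It lies at chr5:30013114-30019981 on the plus strand of GRCm38. Its promoter is shown because it holds matches to 3 of the 4 motifs searched, with the 250 bases before and the 50 bases after the RefSeq start printed 5′ to 3′ (GRCm38.p6, chr5:30012864-30013163, plus strand) and the matches in capitals.
Il6 promoter: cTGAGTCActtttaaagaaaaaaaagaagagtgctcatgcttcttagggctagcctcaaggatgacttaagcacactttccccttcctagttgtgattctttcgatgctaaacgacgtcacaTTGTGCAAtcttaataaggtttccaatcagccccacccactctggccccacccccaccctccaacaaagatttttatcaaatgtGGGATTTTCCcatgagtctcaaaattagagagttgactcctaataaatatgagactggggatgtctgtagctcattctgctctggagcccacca
The motifs searched on both strands were GGGA, any 2 bases and TTCC for NF-kB, TGANTCA for AP-1, TTGNGCAA for C/EBP and TTCNNNGAA for STAT factors. In the Il6 window the AP-1 match TGAGTCA started at base 2 of the window, the C/EBP match TTGTGCAA at -128 and the NF-kB match GGGATTTTCC at -44 from the start. Of 32851 mouse promoter windows of this length, 1.47% held the NF-kB motif, 7.81% the AP-1 motif, 2.94% the C/EBP motif and 8.30% the STAT motif. A match describes the sequence only.

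Il6 measured 2.53, 6.08, 7.47 and 4.93 CPM in LPS replicates 1 to 4. In LPS + Tan replicates 1 to 4 it measured 2.44, 7.63, 3.28 and 3.12 CPM. The groups overlapped over most of their range, since LPS + Tan replicate 2 was the highest of the 8 samples and LPS replicate 1 lay among the lowest. The means were 5.25 ± 2.09 CPM with LPS and 4.12 ± 2.37 CPM with LPS + Tan (SD, n = 4), a log2 fold change of -0.35 ± 0.40 (SE, adjusted p = 0.967, edgeR). Without LPS + Tan replicate 2 the log2 fold change was -0.83 with an unadjusted p of 0.031 (adjusted p = 0.426, edgeR). It was -0.58 without LPS replicate 1, -0.13 without LPS replicate 3 (unadjusted p 0.760) and -0.17 without LPS + Tan replicate 1 (unadjusted p 0.689), so that single samples moved it in both directions. The adjusted p was not below 0.426 in any alternative run.

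Osm encodes oncostatin M, a product mainly of myeloid cells, and lies beside Lif on chromosome 11 (chr11:4236420-4241026, plus strand). It measured 5.12, 5.07, 7.81 and 5.78 CPM in the LPS samples. With LPS + Tan it measured 3.81, 4.81, 4.93 and 5.15 CPM. The 3 lowest samples were LPS + Tan replicates 1 to 3 and the highest was LPS replicate 3, but LPS + Tan replicate 4 lay above LPS replicates 1 and 2. The log2 fold change was -0.35 ± 0.18 (SE), with an unadjusted p of 0.0813 and an adjusted p of 0.924 (edgeR), and it was -0.19 without LPS replicate 3, with an unadjusted p of 0.279.

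Lif encodes leukemia inhibitory factor (chr11:4257557-4272514, plus strand). It was between 3.11 and 5.32 CPM with LPS and between 2.99 and 4.42 CPM with LPS + Tan, with a log2 fold change of -0.14 ± 0.21 (SE, adjusted p = 0.979, edgeR) that lay between -0.27 and -0.03 with one sample left out, the lowest without LPS replicate 3 and the highest without LPS replicate 2. Clcf1, the cardiotrophin-like cytokine that signals through a complex with the CNTF receptor, gp130 and the LIF receptor (chr19:4214238-4223490, plus strand), was between 0.870 and 1.77 CPM with LPS and between 1.01 and 2.46 CPM with LPS + Tan. Its log2 fold change was 0.36 ± 0.32 (SE, adjusted p = 0.951, edgeR), and it was 0.09 without LPS + Tan replicate 1, 0.21 without LPS replicate 1 and 0.55 without LPS replicate 2. Clcf1 shares 8.17% of its exon bases with another gene of the same strand in GENCODE. That gene is not among the genes counted, and how reads of the shared part were counted is not known. Il11, encoding IL-11, a cytokine of stromal and epithelial cells (chr7:4772373-4782859, minus strand), had only 12 to 27 counts a sample with LPS and 14 to 39 with LPS + Tan. The log2 fold change of Il11 was 0.13 ± 0.40 (SE, adjusted p = 0.989, edgeR), and it turned negative when LPS + Tan replicate 2 (-0.24) or LPS replicate 4 (-0.06) was left out. The ranges of both groups overlapped for Lif, Clcf1 and Il11.

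The alpha chains bind the cytokine but do not signal themselves. Il6ra encodes the IL-6 receptor alpha chain, which also circulates in a soluble form (chr3:89864059-89913196, minus strand). It measured 82.7, 88.4, 116 and 105 CPM in the LPS samples. With LPS + Tan it measured 84.6, 115, 96.9 and 61.9 CPM. The highest and the next highest level were in LPS replicate 3 and LPS + Tan replicate 2, and the lowest was in LPS + Tan replicate 4. The log2 fold change was -0.13 ± 0.18 (SE, adjusted p = 0.978, edgeR), and it was 0.01 without LPS + Tan replicate 4, -0.04 without LPS replicate 3 and -0.27 without LPS + Tan replicate 2. Il11ra1 encodes the IL-11 receptor alpha chain (chr4:41699989-41769474, plus strand). It was between 17.0 and 29.0 CPM with LPS and between 21.7 and 30.7 CPM with LPS + Tan, with a log2 fold change of 0.13 ± 0.17 (SE, adjusted p = 0.975, edgeR) that became -0.01 without LPS replicate 3. Its value is uncertain, because 46.3% of the 50-base stretches of its transcripts also occur in other genes, the most in Gm13305, and the counting may have split such reads. The sum of Il11ra1 and its near copy Il11ra2 was 26.4 ± 5.46 CPM with LPS and 28.9 ± 5.29 CPM with LPS + Tan (SD, n = 4). Il11ra2 shares 15.8% of the stretches and the sum leaves out Gm13305, so the uncertainty remains.

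Promoters of the signal-transducing chains are shown because these 3 genes carry the differences described next. Each line is printed as for Il6, and capitals mark a match to one of the 4 motifs, here the AP-1 motif TGATTCA at +4 of Osmr. The windows are chr13:112463820-112464119 (plus strand) for Il6st, chr15:7129322-7129621 (plus strand, the first of the listed Lifr starts) for Lifr and chr15:6874264-6874563 (minus strand) for Osmr.
Il6st promoter: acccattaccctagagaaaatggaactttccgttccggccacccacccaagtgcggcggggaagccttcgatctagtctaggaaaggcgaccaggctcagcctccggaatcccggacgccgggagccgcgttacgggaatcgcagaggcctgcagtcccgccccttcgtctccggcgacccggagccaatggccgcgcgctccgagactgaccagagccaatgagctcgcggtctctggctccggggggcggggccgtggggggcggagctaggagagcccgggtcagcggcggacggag
Lifr promoter: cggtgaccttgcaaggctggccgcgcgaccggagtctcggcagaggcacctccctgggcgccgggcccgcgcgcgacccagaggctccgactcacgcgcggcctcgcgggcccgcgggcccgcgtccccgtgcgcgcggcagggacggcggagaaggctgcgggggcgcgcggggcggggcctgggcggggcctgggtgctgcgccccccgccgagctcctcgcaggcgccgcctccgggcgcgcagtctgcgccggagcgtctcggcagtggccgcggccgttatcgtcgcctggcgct
Osmr promoter: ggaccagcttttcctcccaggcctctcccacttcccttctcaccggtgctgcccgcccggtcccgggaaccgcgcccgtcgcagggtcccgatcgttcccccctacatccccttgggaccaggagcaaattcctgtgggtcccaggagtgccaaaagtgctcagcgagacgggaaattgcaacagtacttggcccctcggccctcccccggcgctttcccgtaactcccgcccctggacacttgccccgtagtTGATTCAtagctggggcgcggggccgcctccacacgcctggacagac
The guanine and cytosine content of the Il6st window was 68.3% and that of the Lifr window 81.3%.

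Il6st encodes gp130, which all 5 cytokines described here need to signal (chr13:112464070-112510086, plus strand). It measured 701, 748, 748 and 692 CPM in the LPS samples. In the LPS + Tan samples it measured 624, 658, 598 and 482 CPM. Every LPS + Tan sample lay below every LPS sample, and LPS + Tan replicate 4 was the lowest. The groups of 2 of the 10 members, Il6st and Lifr, did not overlap, against 2.73% of all tested genes (1.58% higher and 1.15% lower). The means of Il6st were 722 ± 30.1 and 590 ± 76.5 CPM (SD, n = 4), a log2 fold change of -0.29 ± 0.11 (SE) with an unadjusted p of 0.0253 and an adjusted p of 0.924 (edgeR). The unadjusted p was 0.0559 without LPS replicate 2, 0.0573 without LPS replicate 3 and 0.0620 with scaling by total counts. The log2 fold change was between -0.35 and -0.20 over all 18 alternatives, the latter without LPS + Tan replicate 4. In bulk lung tissue, fewer cells that express a gene and less of its RNA per cell cannot be told apart, which holds for every gene here.

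Lifr encodes the LIF receptor chain, the partner of gp130 for LIF and for CLCF1 (chr15:7090614-7197489, plus strand). It measured 65.9, 67.9, 82.8 and 82.1 CPM in the LPS samples. In the LPS + Tan samples it measured 103, 87.3, 104 and 84.3 CPM. All LPS + Tan samples were higher than all LPS samples, although LPS + Tan replicate 4 exceeded LPS replicate 3 by less than the SD of either group. The means were 74.7 ± 9.02 and 94.5 ± 10.2 CPM (SD, n = 4), a log2 fold change of 0.34 ± 0.11 (SE) with an unadjusted p of 0.0115 and an adjusted p of 0.924 (edgeR). Its unadjusted p stayed below 0.05 in all 18 alternatives, with log2 fold changes between 0.29 and 0.39, and its adjusted p did not pass 0.05 in any of them.

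Osmr encodes the OSM receptor chain, the main partner of gp130 for OSM in mice and itself a gene induced by STAT3 (chr15:6813577-6874969, minus strand). It measured 218, 261, 325 and 251 CPM in the LPS samples. Among the LPS + Tan samples it measured 141, 273, 168 and 191 CPM. LPS + Tan replicates 1, 3 and 4 were below all LPS samples, whereas LPS + Tan replicate 2 was the second highest of all 8, so that the groups overlapped. The means were 264 ± 44.7 and 193 ± 57.0 CPM (SD, n = 4), a log2 fold change of -0.45 ± 0.20 (SE) with an unadjusted p of 0.0453 and an adjusted p of 0.924 (edgeR). The unadjusted p was above 0.05 without LPS replicate 2, 3 or 4 (0.0727, 0.131 and 0.0619), without LPS + Tan replicate 1, 3 or 4 (0.115, 0.110 and 0.0805) and with scaling by total counts (0.0537). Without LPS + Tan replicate 2 the log2 fold change was -0.66 and the unadjusted p 0.0017.

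**Figure D2:**
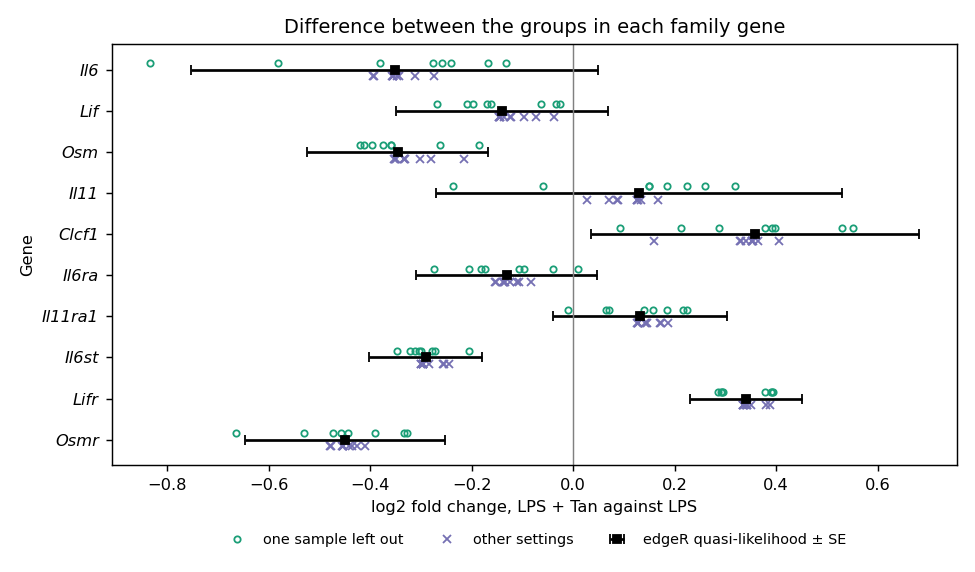
Log2 fold change of LPS + Tan against LPS for each family gene, with black squares and bars for edgeR's estimate and its SE, circles for fits with one sample left out and crosses for the other settings. All points of Il6st and Osmr lie below 0 and all points of Lifr above 0, while those of Il11, Il6ra and Il11ra1 lie on both sides.

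The samples within a group also differed in a way that several members shared and others did not. LPS replicate 3 had the highest level of the 8 samples in Osm, Il6ra, Il6st and Osmr, in Il6st nearly level with LPS replicate 2 (748.1 and 747.6 CPM). It had the lowest level in Il11ra1 and the next lowest in Lif. LPS + Tan replicate 2 had the highest level in Il6 and Il11 and the next highest in Il6ra and Osmr, but the next lowest in Osm and Il11ra1. LPS + Tan replicate 1 had the lowest level in Il6, Osm and Osmr and the highest in Clcf1. The 4 lowest samples of the receptor chain Lifr were all in the LPS group, where LPS replicate 3 (82.8 CPM) was again the highest, close to LPS replicate 4 (82.1 CPM).

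The balance between the signal-transducing chains was described by ratios of their levels per length, in FPKM (counts divided by gene length and library size), with no test. Il6st over Lifr was 20.0, 20.7, 17.0 and 15.8 in the LPS samples. In the LPS + Tan samples it was 11.4, 14.2, 10.8 and 10.7, and the groups did not overlap (18.4 ± 2.34 and 11.8 ± 1.62, SD, n = 4). Osmr over Lifr was 6.55, 7.63, 7.77 and 6.05 in the LPS samples. With LPS + Tan it was 2.71, 6.19, 3.21 and 4.48, and only LPS + Tan replicate 2 reached into the range of LPS. Il6st over Osmr was 2.64 ± 0.358 with LPS and 3.07 ± 0.903 with LPS + Tan (SD, n = 4), with overlapping groups. The ratios were computed after the differences in the single genes were known and add no independent evidence for them.

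**Figure D3:**
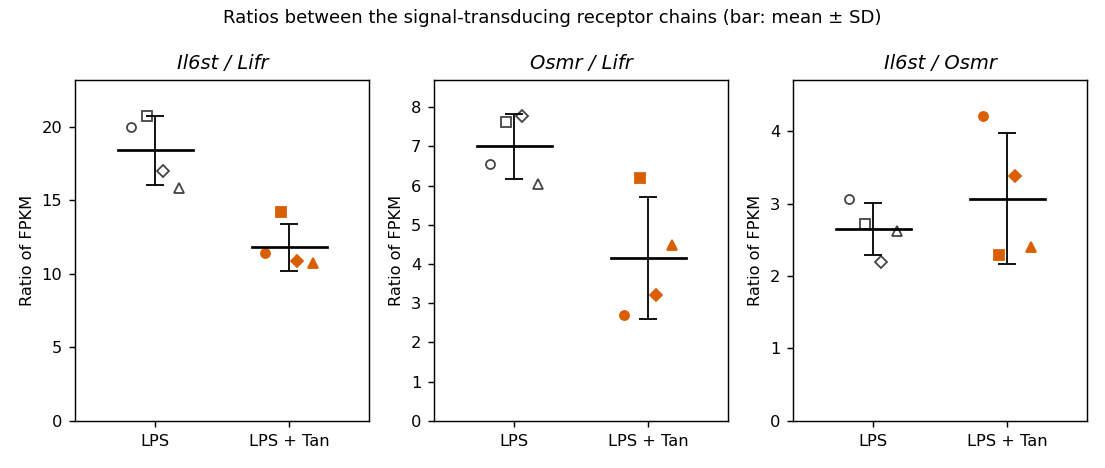
Ratios of FPKM between Il6st, Lifr and Osmr in every lung, on linear axes from 0, with open symbols for LPS, filled symbols for LPS + Tan and bars for the mean and SD of 4 samples. The groups are apart in Il6st over Lifr and overlap in the other ratios.

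Levels of different genes were compared per length, in FPKM over all 8 samples. Il6st was the most abundant member, with a mean of 115 FPKM (81.8 to 132), followed by Osmr with 41.9 (26.7 to 57.3) and Il6ra with 27.8 (17.8 to 34.1). Il11ra1 had a mean of 13.2 FPKM (8.33 to 16.5) and Lifr of 7.89 (6.03 to 10.2). Each receptor chain was thus above each cytokine in mean level. Il6 was the most abundant cytokine with 4.09 FPKM (2.18 to 6.71), before Osm with 2.77 (2.06 to 3.93), Lif with 0.751 (0.530 to 0.979), Clcf1 with 0.701 (0.409 to 1.21) and Il11 with 0.206 (0.113 to 0.364). Among neighbours in this order, the ranges of Osmr and Il6ra, of Il11ra1 and Lifr, of Lifr and Il6, of Il6 and Osm, and of Lif and Clcf1 overlapped. Within samples, Il6 exceeded Osm in 7 of 8 and Lif exceeded Clcf1 in 6 of 8, and the other neighbours kept their order in all 8 samples. Il6st ranked above 96.7% of all tested genes in mean FPKM and Il11 above 8.48%.

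**Figure D4:**
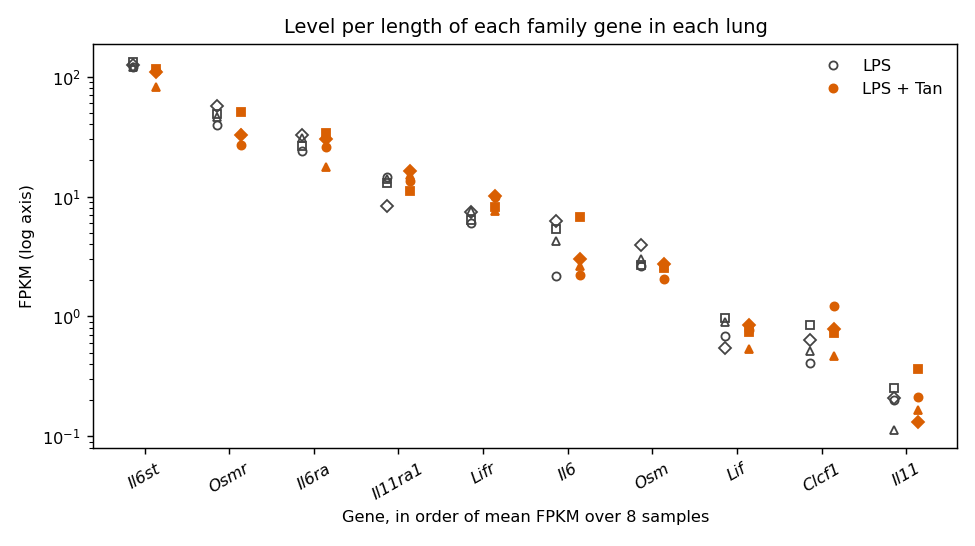
FPKM of each family gene in every lung on a log axis, in order of the mean over 8 samples, with open symbols for LPS and filled symbols for LPS + Tan. Il6st lies at the top with 81.8 to 132 FPKM and Il11 at the bottom with 0.113 to 0.364 FPKM.

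Genes whose pattern over the 8 samples was nearest to that of Il6 were Kctd9, Ddx42 and Aldh1a3, at root mean square distances of 0.250, 0.258 and 0.277 between standardised log2 CPM. Nearest to Il6st were Ints7, Trim56 and Rab11fip4, at distances of 0.223, 0.250 and 0.279. These were the closest of 15669 genes and are given as a description, with no test.

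The other genes of the pathway were taken from 8 lists, and each count below is at an unadjusted p of 0.05 with edgeR, where 2.87% of all tested genes were higher and 2.25% lower. None of these genes passed an adjusted p of 0.05 with edgeR or limma, and 1, Fga, passed it with DESeq2. Of 4 tested ligands outside the members, Ctf1, encoding cardiotrophin 1, was higher, from 1.87 ± 0.160 to 2.62 ± 0.456 CPM (SD, n = 4, log2 fold change 0.48 ± 0.19 SE, adjusted p = 0.924, edgeR), with groups that did not overlap. Of 4 other receptor chains, Cntfr, the receptor of ciliary neurotrophic factor, was lower, from 18.1 ± 5.33 to 11.0 ± 4.23 CPM (SD, n = 4, log2 fold change -0.72 ± 0.30 SE, adjusted p = 0.924, edgeR), with overlapping groups. Of 5 genes for the shedding of IL-6 receptors, Timp3, an inhibitor of the sheddase ADAM17, was lower (3456 ± 234 and 2718 ± 549 CPM, SD, n = 4). The ligand list held 0 calls without LPS replicate 1, 3 or 4 or LPS + Tan replicate 1 or 2, and the receptor list held 0 without LPS replicate 3 or 4 or LPS + Tan replicate 1, 3 or 4. The shedding list held 2 calls without LPS + Tan replicate 4, 1 without LPS + Tan replicate 2 and 0 without any one of the other 6 samples. With one sample left out, the share of all tested genes called also changed, between 3.02% without LPS + Tan replicate 1 and 10.2% without LPS + Tan replicate 2.

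None of the 14 genes of JAK-STAT signalling below gp130 was called, and 7 were higher and 7 lower, with a median log2 fold change of -0.0061. Jak1, the main kinase bound to gp130, measured 392 ± 17.4 and 380 ± 17.2 CPM (SD, n = 4). Stat3, the main transcription factor of the pathway, was 402, 411, 536 and 433 CPM in the LPS samples. It was 323, 496, 324 and 371 CPM in the LPS + Tan samples, with a log2 fold change of -0.24 ± 0.16 (SE, adjusted p = 0.931, edgeR). The value for Stat3 was -0.39 without LPS + Tan replicate 2, with an unadjusted p of 0.0115 (adjusted p = 0.338, edgeR), and -0.13 without LPS replicate 3, with an unadjusted p of 0.414. The list held 3 calls without LPS + Tan replicate 4 and 1 without LPS + Tan replicate 2, beside 9.34% and 10.2% of all tested genes. Of the 10 inhibitors of gp130 signalling, 8 were lower in value, and Ptprt, a phosphatase that acts on STAT3, was called, at 1.01 ± 0.257 and 0.583 ± 0.207 CPM (SD, n = 4). Ptprt kept its call only without LPS replicate 4 or LPS + Tan replicate 2 when one sample was left out, and its unadjusted p was otherwise 0.0517 to 0.114. Socs3, the feedback inhibitor that binds gp130, was 147, 157, 215 and 128 CPM in the LPS samples. It was 142, 211, 137 and 115 CPM in the LPS + Tan samples, with overlapping groups and a log2 fold change of -0.10 ± 0.20 (SE, adjusted p = 0.982, edgeR) that turned to 0.07 when LPS replicate 3 was left out and to 0.01 when LPS + Tan replicate 4 was. Socs3 and Stat3 were highest in LPS replicate 3 and LPS + Tan replicate 2, which were also the highest samples for Osmr and Il6.

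Among 18 genes of the transcription and mRNA turnover of Il6, 15 were lower in value and 2 were called, both lower, with a median log2 fold change of -0.14. Fos, a subunit of AP-1, was 49.9, 71.8, 62.9 and 75.6 CPM in the LPS samples. It was 29.4, 51.2, 31.2 and 42.8 CPM in the LPS + Tan samples, and the groups overlapped only through LPS replicate 1 and LPS + Tan replicate 2. Its log2 fold change was -0.75 ± 0.19 (SE), with an unadjusted p of 0.0027 and an adjusted p of 0.850 (edgeR). Zfp36, encoding tristetraprolin, which promotes the decay of cytokine mRNAs, was 160 ± 9.23 CPM with LPS and 129 ± 13.8 CPM with LPS + Tan (SD, n = 4), with groups that did not overlap and a log2 fold change of -0.31 ± 0.09 (SE, adjusted p = 0.924, edgeR). Both kept an unadjusted p below 0.05 in all 18 alternatives. The list held 6 calls without LPS + Tan replicate 2 and 5 without LPS + Tan replicate 4, beside 10.2% and 9.34% of all tested genes.

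Among 21 genes induced by STAT3, 19 were lower in value and 3 were called, all lower, with a median log2 fold change of -0.12. These were Osmr, already described, Timp1, an inhibitor of metalloproteinases (160 ± 62.4 and 103 ± 28.9 CPM, SD, n = 4), and Steap4, a metalloreductase (288 ± 73.9 and 219 ± 21.9 CPM, SD, n = 4). The number of calls depended on single samples, with 0 without LPS replicate 3 or LPS + Tan replicate 3, 1 without LPS replicate 2 or LPS + Tan replicate 1 or 4, 2 without LPS replicate 1 or 4, and 8 without LPS + Tan replicate 2. It was 1 with scaling by total counts. The share of all tested genes called moved as well, to 3.69% without LPS replicate 3 and 3.72% without LPS + Tan replicate 3. That share was 3.02%, 10.2% and 9.34% without LPS + Tan replicate 1, 2 and 4.

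Acute phase proteins, the classical products of IL-6 signalling in liver, had the lowest median log2 fold change of the 8 pathway lists, -0.34. Of 19 tested genes 17 were lower in value and 5 were called, all lower. The erythroid markers described below had a lower median, -0.51. Fga, encoding the alpha chain of fibrinogen, was 2.43, 2.41, 5.25 and 3.03 CPM in the LPS samples. It was 0.689, 1.81, 0.754 and 1.38 CPM in the LPS + Tan samples, below every LPS sample. Its log2 fold change was -1.50 ± 0.38 (SE, adjusted p = 0.850, edgeR). The adjusted p of Fga was 0.027 with DESeq2 and at least 0.220 in the other alternatives. Fga and Fgg passed the thresholds for differentially expressed genes used in the study. Fga also passed them in 17 of 18 alternatives, the exception being limma on log2(FPKM + 1), where its log2 fold change was -0.53, and Fgg passed them in 10 of 18. Fgg failed them without LPS replicate 1 (log2 fold change -0.83), LPS replicate 3 (-0.99), LPS + Tan replicate 1 (-0.95) or LPS + Tan replicate 3 (-0.99). The unadjusted p of Fgg in these edgeR fits was 0.0982, 0.0688, 0.0717 and 0.0725. It also failed by its unadjusted p alone with limma-voom (0.0531) and with a replicate block (0.0923, edgeR). With limma on log2(FPKM + 1) and log2(FPKM + 0.1) it failed by its log2 fold change alone (-0.46 and -0.89). C3, complement component 3, was 2970 ± 240 CPM with LPS and 2395 ± 152 CPM with LPS + Tan (SD, n = 4), also with groups that did not overlap. Saa2, a serum amyloid A, was 44.0 ± 14.8 and 22.3 ± 12.2 CPM (SD, n = 4), with overlapping groups. The unadjusted p of C3 was 0.0585 without LPS replicate 2, and that of Saa2 was 0.0664 without LPS replicate 3, 0.0514 without LPS + Tan replicate 1 and 0.0549 without LPS + Tan replicate 3. The number of calls in the list was 2 without LPS replicate 3 or LPS + Tan replicate 1 or 3 and 9 without LPS + Tan replicate 2. The share of all tested genes called was 3.69%, 3.02% and 3.72% in the former fits and 10.2% in the latter. The lists share genes, among them Socs3 and Osmr, so their counts are not independent of each other or of the members.

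**Figure D5:**
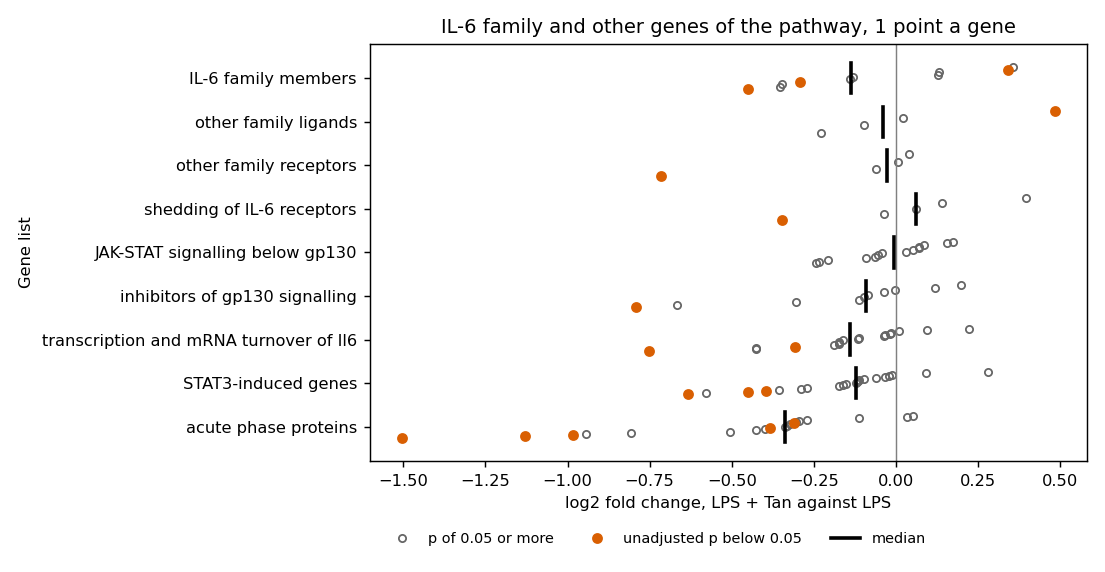
Log2 fold change of LPS + Tan against LPS for each tested gene of the IL-6 family and of 8 lists of other pathway genes, with filled points for an unadjusted p below 0.05 and a bar for the median of each list. The bar of the acute phase proteins lies lowest, at -0.34, and that of JAK-STAT signalling near 0.

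Markers of lung cell types were measured beside these results. Of 9 endothelial markers 6 were higher in value, and Kdr and Tek were called higher (259 ± 37.4 to 334 ± 65.3 CPM and 271 ± 62.7 to 387 ± 107 CPM, SD, n = 4), as was Lifr, while the summed level of the list was 3752 to 4946 CPM with LPS and 4554 to 5018 CPM with LPS + Tan. Of 12 macrophage and monocyte markers 11 were higher in value and 1, C1qa, was called, with sums of 1638 to 2636 CPM and 1681 to 2686 CPM. None of 10 neutrophil markers was called, with sums of 4379 to 6028 CPM and 3962 to 5791 CPM, and none of 9 fibroblast markers, with sums of 3338 to 4107 CPM and 3430 to 3864 CPM. None of the 8 alveolar type 2, 7 alveolar type 1, 8 smooth muscle, 6 mesothelial, 7 tested T cell, 5 tested B cell, 6 erythroid and 7 cardiac muscle markers was called, although all 6 erythroid markers were lower in value (sums of 1426 to 3451 CPM and 1326 to 2171 CPM) and all 7 cardiac markers higher (155 to 211 CPM and 149 to 298 CPM). No listed marker present in the table was at 0 in all samples. Of 5 tested airway markers and 5 platelet markers, 1 each was called lower. In value, 4 of the 5 airway markers and all 5 platelet markers were lower (platelet sums of 32.5 to 36.9 CPM and 19.6 to 37.2 CPM). The part of cell composition in the levels of Il6st, Lifr, Osmr and the pathway genes was not tested.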

How the data were processed

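RNA-seq of 8 lungs was analysed, 4 in each group as labelled. The authors deposited raw read counts for 24584 genes and FPKM values, which are these counts scaled by 1 length per gene and by each sample's total. The submitters' processing notes name GRCm38 and mm10. For the aligner, the counting tool and the strand setting, no name is given in the sources used here. The methods name TRIzol and a VAHTS kit, whereas the labels name a Qiagen kit and another library kit.

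Counts were filtered with filterByExpr, scaled with TMM (factors 0.959 to 1.05) and tested with the quasi-likelihood test of edgeR 4.0.16 in R 4.3.3, without a covariate, and p was adjusted by the Benjamini-Hochberg method over all 15706 tested genes. CPM use TMM-scaled library sizes. The SE of a log2 fold change was derived from it and the F statistic. As alternatives, DESeq2 1.42.0, upper-quartile and RLE scaling, total counts only, no filter, at least 1 CPM in 4 samples, limma-voom (limma 3.58.1), limma on log2(FPKM + 1) and on log2(FPKM + 0.1), a replicate block and fits without each sample were run. The fit was tested on simulated data.

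The members and lists were chosen with earlier results of these data known. The text names all members, up to 3 genes in each direction with the lowest unadjusted p below 0.05 in each list, Jak1, Stat3, Socs3, and the 3 genes nearest to Il6 and to Il6st. Fgg, Kdr, Tek, C1qa, Il11ra2, Gm13305 and Il27 were named after their values were seen. Promoter windows from RefSeq (GRCm38.p6, 250 bases before and 50 after a start) matched 8 of the 10 members, in 11 windows, and gene positions were taken from GENCODE on GRCm38. Depth was nearly equal between samples, and errors are those of the spread between samples.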

Additional observations from a re-analysis of the deposited data

Results flagged for a closer look

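Of 72 groups of 4 samples, for 36 genes, 2 held a sample far from the others, and chance alone gives about 1 in 20, or 3.6. Trim56, one of the genes nearest to Il6st, was 32.9 CPM in LPS + Tan replicate 4 and 53.7 to 57.0 CPM in the other samples of its group, with a gap of 0.892 of the range on the log2 scale. This is also the sample with the lowest Il6st, which is no separate observation, because Trim56 was chosen for its nearness to Il6st over the same samples. Il27, a cytokine whose receptor uses gp130, was 1.20 CPM in LPS replicate 1 and 1.77 to 1.80 CPM in the other LPS samples, with a gap of 0.959 of the range. None of the 10 members held such a sample in either group.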

How the results depend on the processing

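No member passed an adjusted p of 0.05, or an unadjusted p of 0.05 with an absolute log2 fold change of 1, in any of the 18 alternatives. The number of members past an unadjusted p of 0.05 was 3, became 1 with scaling by total counts, and ranged from 1 to 4 when one sample was left out. The lowest number came without LPS replicate 2 or 3 and the highest without LPS + Tan replicate 2. Scaling by total counts also gave 1 call instead of 3 for STAT3-induced genes, as did limma on log2(FPKM + 1) and on log2(FPKM + 0.1). For the inhibitors of gp130 signalling the 1 call became 2 without a filter, 0 with both FPKM settings and with a filter of 1 CPM in 4 samples, and 3 with limma-voom, and shedding went from 1 to 0 with upper-quartile scaling. With one sample left out, the calls ranged from 0 to 1 for other ligands, 0 to 1 for other receptors, 0 to 2 for shedding, 0 to 3 for JAK-STAT signalling, 0 to 3 for inhibitors, 2 to 6 for Il6 transcription and turnover, 0 to 8 for STAT3-induced genes and 2 to 9 for acute phase proteins. The share of all tested genes called ranged from 3.02% to 10.2% in the same fits. The inhibitors held 3 calls without LPS + Tan replicate 4, 2 without LPS + Tan replicate 2, 1 without LPS replicate 4 and 0 without any one of the others. Fga passed an adjusted p of 0.05 with DESeq2 (0.027) and in no other alternative. The cause was not tested. Log2 fold changes with one sample left out ranged from -0.24 to 0.32 for Il11, -0.27 to 0.0096 for Il6ra, -0.010 to 0.22 for Il11ra1 and -0.30 to 0.071 for Socs3, and these 4 were the genes named in the text by rule whose direction turned.

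Replicate numbers did not pair the samples. Deviations of same-numbered samples correlated between -0.148 and 0.123, and 1 of 8 samples correlated best with its own number. A replicate block left 3 members past an unadjusted p of 0.05, changed the calls to 0 for other ligands and for shedding, 2 for inhibitors, 5 for Il6 transcription and turnover, 2 for STAT3-induced genes and 4 for acute phase proteins, and gave 397 higher and 429 lower calls over all genes instead of 451 and 353. The FPKM settings gave 644 and 276, and 639 and 272. Other scalings moved the median of all genes by at most 0.04 on the log2 scale.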
